A study of Zea mays with 12 samples.

Results

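ACC1 and acpt1 are the pair of genes that the deposited table of this maize (Zea mays) study annotates to the making of fatty acids, and they were taken by their exact symbols, 2 of the 99 genes in the table. Expression was measured as FPKM, in which fragments are scaled by library size and gene length. Genes needed an FPKM of 1 or more in 3 or more of the 12 libraries to be tested, and both members were among the 76 genes that met this. Embryos came from seeds that had taken up water in germination paper for 2 h. The groups were Mo17 at 10 °C, Mo17 at 25 °C, B73 at 10 °C and B73 at 25 °C, with 3 biological replicates each. Mo17 is an inbred line that the labels call sensitive to low temperature, B73 is an inbred line that they call resistant, and 25 °C was the normal condition. All groups were embryos in the germination period, and no transgene or chemical treatment is named in the labels. With 1 line on each side, what separates Mo17 from B73 cannot be told apart from other properties of those seed lots.

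Fatty acid synthesis in plants takes place mainly in plastids. Acetyl-CoA carboxylase, a biotin enzyme, adds carbon dioxide to acetyl-CoA and so makes malonyl-CoA, the committed step of the pathway, and a cytosolic form of the enzyme supplies malonyl-CoA for the elongation of fatty acids. Acyl carrier protein then holds the growing chain on a phosphopantetheine arm while the other enzymes of the pathway act on it. Maize embryos store much of the oil of the kernel, which is why the pathway is of interest in this tissue.

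ACC1 lies on chromosome 2 at 84495887 to 84510241, plus strand, in the coordinates of B73 RefGen_v4, a span of 14355 bp with 6 RefSeq transcripts. Its description, gene ontology terms, enzyme class and KEGG pathways in the table all name acetyl-CoA carboxylase. The ontology terms place it in the cytosol and include malonyl-CoA biosynthesis, fatty acid elongation, embryo development ending in seed dormancy and cold acclimation. acpt1 lies on chromosome 1 at 209574078 to 209576715, plus strand, a span of 2638 bp with 1 RefSeq transcript. Its ontology terms are acyl carrier activity, phosphopantetheine binding and fatty acid biosynthesis, and the RefSeq gene table lists acp as a synonym, but its description is unknown and its KEGG entry and enzyme class are those of phosphofructokinase, an enzyme of glycolysis. The columns of the table thus disagree on acpt1, which is called here by its symbol. No other RefSeq gene overlapped the span of either gene in a later B73 assembly (NAM), from which no coordinates are given. Values are for whole genes, so exons, introns and transcripts were not told apart, and reads of close relatives of either gene could have been divided between them.

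The relative depth of the libraries ran from 0.817 to 1.08, and the total number of fragments is unknown. B73 10 °C replicate 1 stood apart, with correlations of 0.969 and 0.974 to its own replicates over the tested genes, and results that rest on it are also given without it. Of the embryo and endosperm marker genes looked for, the table holds 1, Agpsemzm, the embryo small subunit of ADP-glucose pyrophosphorylase, which was found in all 12 libraries at 92.9 to 149 FPKM, so that the tissue label could not be checked further. In bulk embryos, fewer cells of a type and less RNA per cell cannot be told apart.

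ACC1 was higher in Mo17 than in B73 at both temperatures and showed no detectable change with temperature in either line. In Mo17 at 10 °C its FPKM was 62.4, 80.7 and 81.2 in replicates 1, 2 and 3, and in Mo17 at 25 °C it was 72.96, 66.1 and 83.6. In B73 at 10 °C the values were 57.7, 30.0 and 39.6 FPKM, and in B73 at 25 °C they were 39.0, 44.0 and 44.5. Every Mo17 library lay above every B73 library, although the margin was narrow, since the lowest Mo17 library exceeded the highest B73 library, replicate 1 at 10 °C, by only 1.08-fold. Of all 76 tested genes, 35.5% at 10 °C and 40.8% at 25 °C had Mo17 libraries that all lay above the B73 libraries. These shares compare 3 libraries with 3 at 1 temperature, a looser comparison than that of all Mo17 with all B73 libraries. The share of genes over both temperatures together was not computed.

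acpt1 also separated the lines, and by a wider margin. Its FPKM was 5.32, 6.87 and 6.94 in Mo17 at 10 °C and 7.84, 7.94 and 10.1 in Mo17 at 25 °C. In B73 it was 1.70, 1.44 and 1.24 at 10 °C and 1.43, 1.73 and 1.3 at 25 °C. The lowest Mo17 library exceeded the highest B73 library 3.08-fold. Within Mo17, all libraries at 10 °C lay below all libraries at 25 °C, as for 19.7% of all tested genes, while in B73 the temperatures overlapped.

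**Figure D1:**
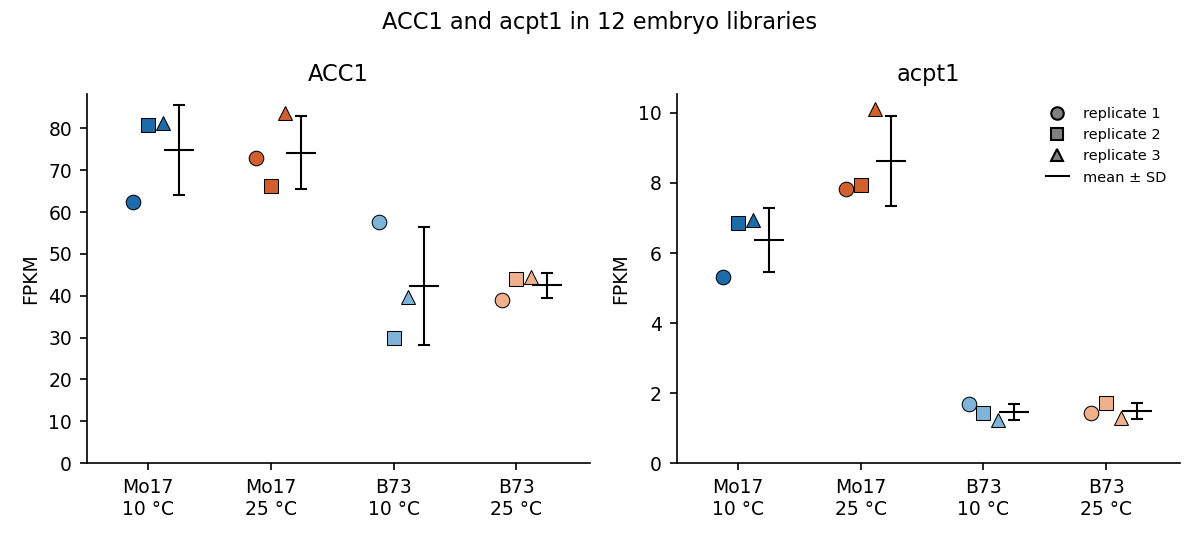
FPKM of ACC1 (left) and acpt1 (right) in each of the 12 libraries, by line and temperature, with marker shapes for the replicates and a bar for the mean ± SD (n = 3). For both genes the 6 Mo17 libraries lie above the 6 B73 libraries, and for acpt1 the Mo17 libraries at 10 °C also lie below those at 25 °C.

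As group means, ACC1 stood at 74.8 ± 10.7 FPKM in Mo17 at 10 °C and 74.2 ± 8.78 FPKM in Mo17 at 25 °C (mean ± SD, n = 3 each, here and for the next values). In B73 it stood at 42.4 ± 14.1 FPKM at 10 °C and 42.5 ± 3.02 FPKM at 25 °C. The temperatures were almost level and their libraries overlapped in each line, so the step between the lines was the only step between neighbours in the order of the means that exceeded the spread. For acpt1 the means were 6.38 ± 0.92 FPKM in Mo17 at 10 °C, 8.63 ± 1.28 in Mo17 at 25 °C, 1.46 ± 0.23 in B73 at 10 °C and 1.49 ± 0.22 in B73 at 25 °C. In its order, with Mo17 at 25 °C highest and B73 at 10 °C lowest, the B73 groups overlapped, and the other neighbouring groups did not.

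The line difference was tested with edgeR's quasi-likelihood test on the counts, with Benjamini-Hochberg adjustment over all 76 genes and a threshold of 0.05. Both members passed as higher in Mo17 at both temperatures, as did 36.8% of the 76 genes at 10 °C and likewise 36.8% at 25 °C. With only 2 members, a count of calls by itself says little about how the pair differs from the other genes. At 10 °C, acpt1 averaged 1720 ± 247 counts divided by relative depth in Mo17 and 394 ± 62.1 in B73, a 4.36-fold difference. The log2 difference was 2.13 ± 0.19 (SE), with an adjusted p of 3.76e-06 (edgeR quasi-likelihood). At 25 °C acpt1 averaged 2326 ± 346 in Mo17 and 402 ± 58.5 in B73 on the same scale, 5.79-fold, with an adjusted p of 7.2e-07 (edgeR quasi-likelihood). Its 95% confidence interval on the log2 scale was 1.72 to 2.54 at 10 °C and 2.12 to 2.95 at 25 °C. Quantile normalization was run on log2(FPKM + 1), where low genes appear to change less, and gave smaller log2 differences of 1.26 and 1.64, still past the threshold. On log2(FPKM + 1) without quantile normalization, limma gave 1.58 at 10 °C and 1.95 at 25 °C.

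ACC1 averaged 9599 ± 1372 depth-divided counts in Mo17 and 5448 ± 1809 in B73 at 10 °C, a 1.76-fold difference. The log2 difference was 0.82 ± 0.20 (SE; edgeR quasi-likelihood, adjusted p = 0.00489), with a 95% confidence interval of 0.37 to 1.27. At 25 °C it averaged 9529 ± 1126 in Mo17 and 5454 ± 388 in B73, 1.75-fold, with a log2 difference of 0.80 ± 0.20 (SE; edgeR quasi-likelihood, adjusted p = 0.00457). Both calls held without B73 10 °C replicate 1, which raised the log2 difference at 10 °C to 1.10. Without B73 10 °C replicate 2 that difference fell to 0.62, still called (edgeR quasi-likelihood, adjusted p = 0.0144). With TMM factors the call at 10 °C was lost, at a log2 difference of 0.48 and an adjusted p of 0.0591 (edgeR quasi-likelihood), the adjusted p over all alternatives running between 0.000104 and 0.0591, while that at 25 °C held, at 0.54. With TMM the median over all tested genes at 10 °C was a log2 difference of -0.26, against 0.06 without it, and relative to that median ACC1 stood at 0.75 under both scalings.

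Among the genes with higher values in Mo17, acpt1 ranked 8 by size of the difference at 10 °C and 5 at 25 °C, and it ranked 4 of the 76 genes by p at each temperature. In the same order by size, ACC1 ranked 21 at 10 °C and 23 at 25 °C. By size in either direction it ranked 29 of the 76 genes at each temperature.

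**Figure D2:**
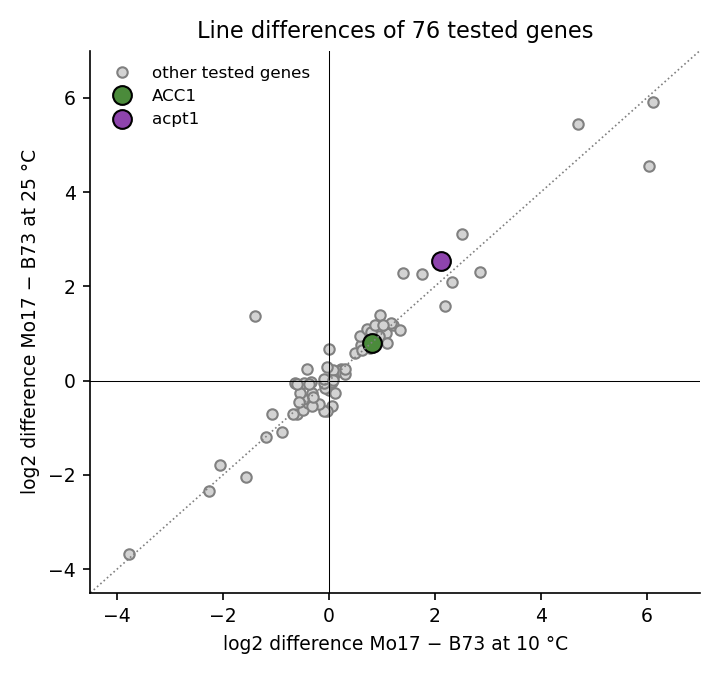
Log2 difference between Mo17 and B73 at 10 °C (x axis) and at 25 °C (y axis) for each of the 76 tested genes, from the edgeR fit; the dotted line marks equal differences. acpt1, at 2.13 and 2.53, lies in the upper right among the larger increases, and ACC1, at 0.82 and 0.80, shows a smaller increase than acpt1.

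Imbibition at 10 °C gave no call for either gene, where 1.32% of the 76 genes were called in B73 and 2.63% in Mo17. In B73, the log2 change of ACC1 at 10 °C was 0.00 (SE 0.20), with a 95% confidence interval of -0.45 to 0.44, and in Mo17 it was 0.01 ± 0.20 (SE), with an interval of -0.43 to 0.46. Any change of ACC1 inside these intervals remained compatible with the data, so the absence of a change was not shown. The B73 value rested on replicates that differed, since replicate 1 at 10 °C had 57.7 FPKM and replicate 2 had 30.0. Without replicate 1 the log2 change of ACC1 in B73 was -0.29 (edgeR quasi-likelihood, adjusted p = 0.416), and without replicate 2 it was 0.20 (adjusted p = 0.567).

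For acpt1 the log2 change in B73 was -0.03 ± 0.18 (SE), with an interval of -0.42 to 0.37. In Mo17 it was -0.44 ± 0.18 (SE), with an interval of -0.83 to -0.04, and the mean at 10 °C was 0.739 times that at 25 °C. This was the 15th smallest p of the 76 genes, and it missed the threshold after adjustment (edgeR quasi-likelihood, unadjusted p = 0.0323, adjusted p = 0.161, range 0.107 to 0.53 over all alternatives). The size of the difference in Mo17 leaned on Mo17 25 °C replicate 3, at 10.1 FPKM, without which it was -0.31, and on Mo17 10 °C replicate 1, at 5.32 FPKM, without which it was -0.32.

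The interaction term asked whether cold changed a gene by different amounts in the lines. For acpt1 it was -0.41 ± 0.25 (SE) on the log2 scale, with a 95% confidence interval of -0.97 to 0.15 and an adjusted p of 0.731 (edgeR quasi-likelihood), so a difference between the lines was not shown. For ACC1 it was 0.01 ± 0.29 (SE), with an interval of -0.62 to 0.64. No gene of the 76 passed this test, with 6 at an unadjusted p under 0.05, and DESeq2 also called none, while quantile normalization called 2, neither of them ACC1 or acpt1. The mean of both lines' changes at 10 °C, added after the data were seen, was 0.00 (SE 0.14) for ACC1 and -0.23 ± 0.13 (SE) for acpt1, with an interval of -0.51 to 0.05 for acpt1, where 10.5% of the genes were called.

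**Figure D3:**
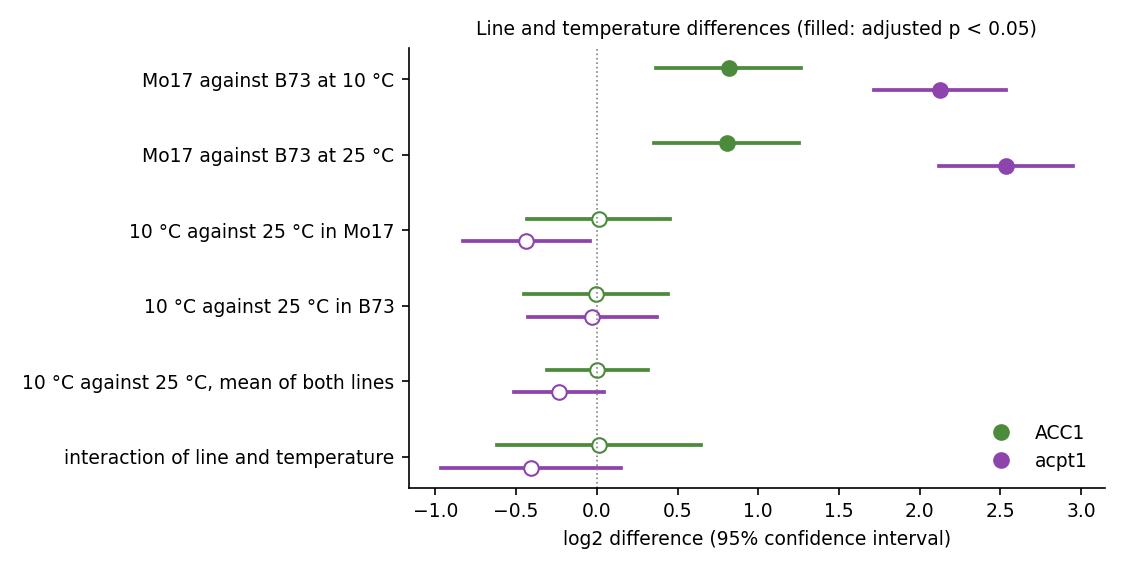
Log2 differences of ACC1 (green) and acpt1 (purple) with 95% confidence intervals for each comparison; filled points passed an adjusted p of 0.05 (edgeR quasi-likelihood) and open points did not. The line differences of both genes lie above 0, and the acpt1 change at 10 °C in Mo17, at -0.44, is the temperature difference farthest from 0.

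The genes were also compared within each library, by the log2 ratio of acpt1 to ACC1, each as FPKM + 1. A ratio of FPKM or of counts without the added 1 does not depend on library depth. With the added 1, this ratio depends in part on how FPKM is scaled. It was used only between libraries, because the scale of FPKM could not be compared between the genes: acpt1 has 2.10 times as many counts per unit of FPKM as ACC1, although the span of ACC1 is 5.44 times that of acpt1. The log2 ratio was -3.33, -3.38 and -3.37 in Mo17 at 10 °C and -3.06, -2.91 and -2.93 in Mo17 at 25 °C. In B73 it was -4.44, -3.67 and -4.18 at 10 °C and -4.04, -4.04 and -4.31 at 25 °C. All Mo17 libraries lay above all B73 libraries, and in Mo17 the libraries at 10 °C lay below those at 25 °C. The share of other gene pairs with such separations was not computed. acpt1 alone also separated the lines and the Mo17 temperatures, so these separations of the ratio are not independent of it.

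The ratio was higher in Mo17 by 0.95 on the log2 scale over both temperatures, 0.74 at 10 °C and 1.16 at 25 °C. An exact permutation test of the lines within each temperature, 2-sided, gave p = 0.005, the smallest that its 400 arrangements allow, and 0.01 after adjustment over the 2 tests of this ratio. The pseudocount lessens the change of acpt1, and without it, where depth plays no part, the difference was 1.503. The lines thus differed more in acpt1 than in ACC1. Between temperatures the ratio differed by -0.18 at 10 °C against 25 °C (exact permutation test within each line, 2-sided, p = 0.22, adjusted p = 0.22), as the mean of -0.39 in Mo17 and 0.03 in B73. That p fell to 0.015 without B73 10 °C replicate 2, and ran from 0.015 to 0.585 over all alternatives.

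**Figure D4:**
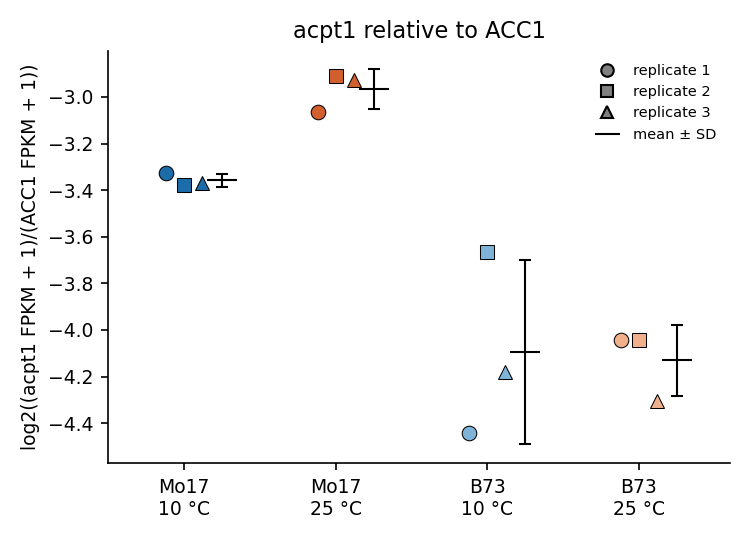
Log2 ratio of acpt1 to ACC1, each as FPKM + 1, in each library by line and temperature, with marker shapes for the replicates and a bar for the mean ± SD (n = 3). The Mo17 libraries lie between -3.38 and -2.91 and the B73 libraries between -4.44 and -3.67, with the widest spread in B73 at 10 °C.

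The coefficient of variation of ACC1 within a group was 14.3% in Mo17 at 10 °C, 11.8% in Mo17 at 25 °C, 33.2% in B73 at 10 °C and 7.12% in B73 at 25 °C, while that of acpt1 lay between 14.4% and 15.8% in all 4 groups. ACC1 thus had the larger value of the pair in B73 at 10 °C alone, where replicate 1 stood apart, and without that library its value there was 19.5% and that of acpt1 10.6%, over 2 replicates. The within-group SD of log2(FPKM + 1) was 0.27 for ACC1, which ranked 59 from the lowest of the 76 genes, and 0.16 for acpt1, which ranked 33, against a median of 0.19. Without the same library it was 0.19 for ACC1 and 0.16 for acpt1, against a median of 0.15. In Mo17 the same libraries were extreme for both genes, with replicate 1 lowest at 10 °C and replicate 3 highest at 25 °C. Deviations of both genes from their group means correlated at a Pearson r of 0.61 over the 12 libraries, and at 0.55 without B73 10 °C replicate 1. The genes share libraries and depth, so these values are descriptions only.

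Among the other tested genes, the levels most like those of acpt1 over the 12 libraries were those of ADF3, an actin-depolymerizing factor, AR3, the gene with the highest FPKM in the table, and ae1_1, a starch branching enzyme, with Pearson r of 0.98, 0.96 and 0.96 on log2(FPKM + 1). Those most like ACC1 were aos1, an allene oxide synthase of jasmonate synthesis, aldh5, an aldehyde dehydrogenase, and akh2, a bifunctional aspartokinase and homoserine dehydrogenase, at 0.96, 0.94 and 0.93. The libraries fall apart by line, and all 6 of these genes had a higher mean FPKM in Mo17 at each temperature, so that such r mostly restate the line difference. In B73, aldh5, akh2 and ae1_1 had means of 0.32 to 0.97 FPKM, below the filter of 1, and their means in Mo17 lay above it. The filter itself thus favoured such a profile for these low genes. Quantile normalization put the line difference of aos1 at -0.21 at 10 °C and 0.26 at 25 °C, neither of them called (limma, adjusted p = 0.594 and 0.500). The edgeR fit gave 0.86 and 1.19, both called. aos1 ranked 70 to 75 of 76 over the libraries. Quantile normalization can show no difference for AR3, which ranked 76 of 76 in every library, because it sets equal ranks to equal values. With the group means removed, the genes nearest to ACC1 were AGG2, at 0.89, and aos1, at 0.85, which were 0.73 and 0.61 without B73 10 °C replicate 1. Those nearest to acpt1 were anx2, an annexin, at 0.86, and amyb5, a beta-amylase, at 0.83, which were 0.84 and 0.80 without that library. amyb5 was low, with group means of 0.27 to 1.35 FPKM.

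A search of the annotation for fatty acid, acyl carrier, biotin, acetyl-CoA, malonyl and related terms matched 5 genes of the table, all tested. Beside ACC1 and acpt1 these were adh1, adh2 and aldh2, which have KEGG terms of fatty acid degradation and whose best-known roles are in fermentation and aldehyde oxidation. Of the 5, 4 were called higher in Mo17 at each temperature and 1, aldh2, was called lower (edgeR quasi-likelihood), where 36.8% of all tested genes were called higher at each temperature and 27.6% at 10 °C and 25% at 25 °C were called lower. These signs held under all scalings tried, except that quantile normalization can show no difference for adh1 at 25 °C, where it ranked 75 of 76 in every library. None of the 5 was called between temperatures within a line by edgeR, and with quantile normalization aldh2 was called lower at 10 °C in Mo17 (limma, log2 change -0.57, adjusted p = 0.0303). In the mean of both lines' changes, adh1 and aldh2 were called lower at 10 °C, as were 9.21% of all tested genes, with log2 changes of -0.75 (edgeR quasi-likelihood, adjusted p = 0.00968) and -0.51 (adjusted p = 0.0320). The adh1 call was lost with quantile normalization (limma, adjusted p = 0.295). That method can show no change of adh1 in Mo17, where it ranked 75 of 76 in every library, so this loss does not bear on the call. The aldh2 call was lost with median-ratio factors (edgeR quasi-likelihood, adjusted p = 0.0869) and with a replicate block (edgeR quasi-likelihood, adjusted p = 0.0676). With 1 library left out, the aldh2 call held without Mo17 10 °C replicate 3 or replicate 2 of Mo17 at 25 °C, B73 at 10 °C or B73 at 25 °C, and was lost without any of the other 8 libraries, with an adjusted p of up to 0.0988 (edgeR quasi-likelihood). The median log2 difference of the 5 genes between the lines was 2.13 at 10 °C, which is the value of acpt1 itself. At 25 °C it was 2.09, that of adh1, against 0.06 and 0.17 over all tested genes. With quantile normalization on log2(FPKM + 1) it was 0.80 and 0.85, the values of ACC1 itself, against -0.07 and -0.09. The list holds both members, so these medians do not show a difference of fatty acid genes beyond the pair. Other enzymes of fatty acid synthesis, and other genes for acetyl-CoA carboxylase or acyl carrier protein, were not analysed here.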

How the data were processed

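Polyadenylated RNA was read in pairs from dUTP libraries, per the labels' protocols. The genome build B73 RefGen_v4 and the tools StringTie 1.3.4d, HISAT2 2.0.4, cutadapt 1.9, DESeq2 and edgeR are listed, without their roles, per the submitters' processing notes, and the build is the same for Mo17 libraries. The single table holds a count and an FPKM per gene and library, both made by the authors before deposit, per the file headers. The smallest deposited count above 0 is 3, so counts may derive from coverage, and no counting intervals are given. Whether strand was used in counting is not stated in the labels.

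Relative depth was the median ratio of count to FPKM over the 48 genes whose FPKM reached 5 in every library, which each gene followed within 0.374%. edgeR 4.0.16 (R 4.3.3) took the counts, with that depth as library size. TMM factors were left out, since among 76 genes a majority without change cannot be assumed. One model of 4 group means covered all 12 libraries, and standard errors and 95% intervals were derived from the F statistic. The p-values of this model rest on the spread among the 3 replicates of each group, which the labels call biological. That spread was pooled over the 4 groups and drew on the other tested genes. The ratio of the genes was tested by exact permutation, and fits were tested on simulated data. Alternatives included limma 3.58.1, DESeq2 1.42.0, other scalings, filters and pseudocounts, a replicate block and leaving out each library. Named genes were both members, the 3 genes most like each in level and the 2 most like each in deviations, and an annotation search. Chromosome numbers came from the RefSeq table, matched by transcript for 2 of 2 members. The members, lists and tests were chosen with earlier results of these data known.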

Additional observations from a re-analysis of the deposited data

How the results depend on the processing

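The line differences of acpt1 and of ACC1 kept their direction under all alternatives run, and their side of the threshold except for ACC1 at 10 °C with TMM factors (log2 difference 0.48, adjusted p = 0.0591, edgeR quasi-likelihood). Changes near 0 changed sign without passing. ACC1 at 10 °C in B73 was 0.0698 with TMM factors, 0.0663 with median-ratio factors and 0.104 with quantile normalization, and acpt1 there was 0.0394, 0.0456 and 0.0798. The ACC1 interaction was -0.0608 with TMM factors and -0.0526 with quantile normalization, and the mean cold change of ACC1 was -0.0213 with limma on log2(FPKM + 1) and -0.0223 on log2(FPKM + 0.1). Leaving out each library gave -0.29 to 0.20 for ACC1 and -0.15 to 0.0946 for acpt1 at 10 °C in B73, -0.0659 to 0.13 for ACC1 at 10 °C in Mo17, -0.19 to 0.30 for the ACC1 interaction, -0.14 to 0.10 for the mean cold change of ACC1, and -0.29 to -0.0921 for the ratio of acpt1 to ACC1 between temperatures. Over all genes, the number called at 10 °C ran from 0 to 2 in B73, against 1, and from 0 to 9 in Mo17, against 2. Quantile normalization called 2 genes for the interaction, against 0, and 4 for the mean cold change, against 8. Genes called higher and lower in Mo17 were 28 and 21 at 10 °C and 28 and 19 at 25 °C, and with TMM factors 22 and 32, and 26 and 27. At 25 °C the median log2 difference of all tested genes was 0.17, and -0.09 with TMM factors, 0.03 with median-ratio factors and -0.09 with quantile normalization. Relative to these medians the acpt1 difference at 25 °C was 2.36, 2.36, 2.37 and 1.73.

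Same-numbered libraries did not deviate together (r of -0.43 to 0.44, over 0.1 in 4 of 18 pairs), so the numbers were not taken as pairs. With a replicate block the log2 differences of ACC1 were 0.83 and 0.80 at 10 °C and 25 °C and those of acpt1 2.12 and 2.54, and the acpt1 change in Mo17 was -0.44. The block changed no call of either gene, and gave p = 0.03125 for the line difference of the ratio (exact sign flips). The cause of each change above was not tested. The total depth is unknown. In B73 acpt1 lay just above the filter of 1, at 1.24 to 1.73 FPKM, and its coefficient of variation was 14.4% and 14.9% in Mo17 and 15.8% and 14.8% in B73, at 10 °C and 25 °C.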
